A study of Mus musculus with 2 samples.

Results

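Of the 1474 cell barcodes in the library of the small intestine, 517 (35.1%, 32.6 to 37.6) were T cells with high Ccl5 RNA and no RNA of Cd8a, Cd8b1 or Cd7. They were selected on measured values: a mitochondrial share below 6% of all UMIs (unique molecular identifiers, 1 for each RNA molecule caught), Ccl5 at 1% of the UMIs or more, 0 UMIs of Cd8a, Cd8b1 and Cd7, and fewer than 4 summed UMIs of the 5 cycle genes Mki67, Top2a, Birc5, Cdk1 and 2810417H13Rik. Both libraries together held 3212 barcodes. The mitochondrial limit left 1408 cells, the Ccl5 limit 1155, the lack of Cd8 transcripts 923 and the limit on cycle genes 891, which divided into the 517 cells without Cd7 and 374 cells with it. The lowest Ccl5 share among the 517 cells was 1.01% and the highest share just outside the limit was 0.967%, with a median of 5.56% and a highest value of 18.0% among the cells kept. Cells between 1% and 2% numbered 44, and 23 cells with 0.5% to 1% lay outside. The cells are called Cd7-negative Ccl5-high cells here.

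The mice carried reporters for IL-10 (eGFP) and Foxp3 (mRFP), were 8 to 16 weeks old, and received 2 intraperitoneal injections of 15 µg of the anti-CD3 antibody 2C11, on days 0 and 2. Cells were taken 4 h later. IL-10eGFP+ CD4+ T cells, Foxp3+ cells included, were sorted from spleen and from the small intestine, where the intraepithelial and lamina propria fractions were released with EDTA and collagenase. Each tissue gave 1 library, every mouse was treated, and how many mice were pooled is not given in the sources used here. Levels are therefore given without tests. A level is a gene's summed UMIs in a group of cells per 1000000 UMIs of all genes in those cells (CPM), with an exact Poisson 95% interval in brackets. Intervals of shares are exact binomial ones. All intervals cover counting error only, since cells of 1 library are not replicates. The tissues also differ in digestion, library and depth, so that tissue, preparation and library cannot be told apart.

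CCL5 is a chemokine that cytotoxic and memory T cells store and release, and IL-10 is a cytokine that restrains inflammation. Type 1 regulatory (TR1) cells are CD4+ T cells that make IL-10 without stable Foxp3 and often carry the receptor LAG-3 and granzyme B. In the gut, T cells lie in the lamina propria or within the epithelium, where many take up an intraepithelial program with granzymes, CD103 (Itgae), CD160 and killer lectin-like receptors. CD7 is a surface glycoprotein of the immunoglobulin family found on many T and NK cells and is high on intraepithelial T cells.

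The Cd7-negative cells had a median of 3439 UMIs (990 to 10066) and 1409 genes per cell, and a median mitochondrial share of 1.80%. The 374 Cd7-positive Ccl5-high cells had a median of 3671.5 UMIs. The other intestinal groups set beside them were 119 cells with both Cd8a and Cd8b1 UMIs (Cd8-positive cells, 4058 UMIs), 219 Ccl5-low cells (3686 UMIs) and 94 cycling cells (6432 UMIs). The splenic library gave 163 Ccl5-high cells with Ccl5 at 0.5% of UMIs or more and 0 Foxp3 UMIs (4831 UMIs), and 1575 other cells. No barcode was shared by the libraries. Of the members, 435 had at least 2000 UMIs, and where cells are compared one by one each was thinned at random to 2000 UMIs, leaving out the 82 shallower members.

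The label of CD4+ T cells held up in part at the RNA level. Cd4 stood at 502 CPM (469 to 536) in the Cd7-negative cells and at 124 CPM in the Cd8-positive cells, and after thinning 64.8% (60.1 to 69.3) of the former and 18.8% (12.2 to 27.1) of the latter had a Cd4 UMI. The shares as deposited were 76.0% and 39.5%. Cd3e, a chain of the T cell receptor complex, stood at 933 CPM, and the constant chains of the receptor are not in the gene list. Foxp3 had 3 UMIs in all 517 cells, the eGFP reporter 2 and the mRFP reporter 0. Il10 itself stood at 723 CPM (684 to 763), with a UMI in 76.2% of the members. Ms4a1, Lyz2, Vil1 and Ncr1, which mark B cells, macrophages, enterocytes and NK cells, were at 0 UMIs. The 6 listed B and plasma cell markers summed to 3.40 CPM, with 4 of them at 0 and Cd79b the most abundant at 4 UMIs. The 9 epithelial markers summed to 54.3 CPM, against 16.9 in splenic Ccl5-high cells, with Lgals4 (68 UMIs) leading and 2 at 0. The 8 myeloid markers summed to 216 CPM, against 221 in splenic Ccl5-high cells, with Cst3 (221 UMIs) leading and 3 at 0. Of the 2 with at least 100 UMIs over both groups, Cd68 was more than 1.5-fold higher than in those splenic cells (log2 ratio 1.55). The other was not past 1.5-fold. The 7 markers of NK cells and innate lymphoid cells summed to 67.3 CPM, of which Rora, which T cells also express, gave 117 of 119 UMIs, and 4 were at 0. The 4 haemoglobin genes were at 0.

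The most abundant RNAs included those of granzymes. Ccl5, on which the cells were selected, took 6.04% of all their UMIs. Next to the nuclear RNA Malat1 (4.38%), granzyme A (Gzma) took 2.08%, the actin-binding thymosin Tmsb4x 1.44%, granzyme B (Gzmb) 1.22% and beta-actin (Actb) 1.14%. Rps27, Rpl41, Actg1 and Rpl13a completed the 10 most abundant. At equal depth a Gzmb UMI was seen in 99.1% (97.7 to 99.7) of the cells and a Gzma UMI in 94.3% (91.6 to 96.2). No group of these libraries is known to lack the granzymes, and the part of free RNA in such shares was not tested. In the other splenic cells the shares were 25.8% for Gzmb and 2.35% for Gzma, and in intestinal Ccl5-low cells 79.5% and 70.5%.

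The 5 genes that mark the cells were Plac8, Lag3, Tnfrsf4, Gzmb and Sdf4. Lag3 encodes a coinhibitory receptor that binds MHC class II, Tnfrsf4 the costimulatory receptor OX40, Gzmb a serine protease of cytotoxic granules, Sdf4 a calcium-binding protein of the Golgi, and Plac8 a small cysteine-rich protein. Lag3 stood at 3602 CPM (3514 to 3692) in the Cd7-negative cells, at 2002 in Cd7-positive cells, 1453 in Cd8-positive cells, 1727 in Ccl5-low cells, 985 in cycling cells, 1760 in splenic Ccl5-high cells and 1103 in the other splenic cells. Sdf4 had its highest level of these 7 groups here as well, 1699 CPM (1639 to 1761), against 1201 in Cd7-positive and 1128 in splenic Ccl5-high cells. The remaining markers did not set the Cd7-negative cells apart in this way. Plac8 was 1705 CPM (1645 to 1767) in them, 1784 in Cd7-positive and 2451 in Cd8-positive cells, and 653 in Ccl5-low cells. Gzmb was 12230 CPM (12068 to 12394), below the 15280 of Cd7-positive and the 17822 of Cd8-positive cells, and above the 4478 of Ccl5-low cells. Tnfrsf4 was 1429 CPM (1374 to 1486), above all intestinal groups (840 in Cd7-positive, 157 in Cd8-positive, 1154 in Ccl5-low and 350 in cycling cells), but below the splenic groups (2067 and 2691).

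**Figure D1:**
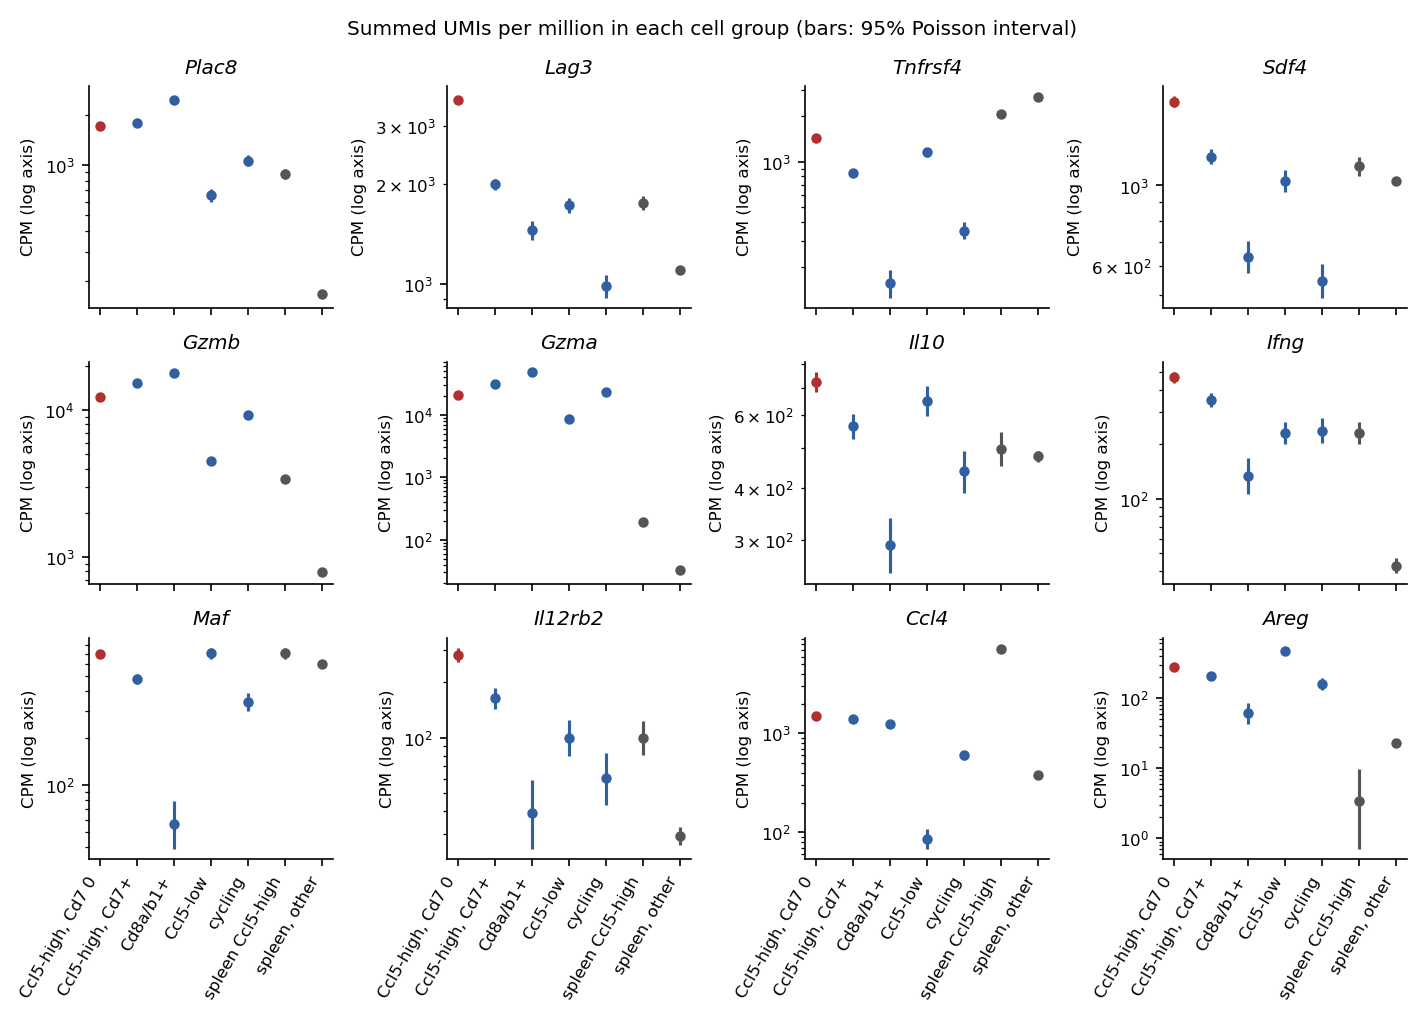
Level of 12 genes (CPM, on log axes that differ between panels) in 5 intestinal groups (red, the Cd7-negative Ccl5-high cells, and blue) and 2 splenic groups (grey), with 95% Poisson intervals. Lag3, Sdf4, Il10, Ifng and Il12rb2 have their highest point in the Cd7-negative cells, while Gzma and Gzmb peak in the Cd8-positive cells and Ccl4 in the splenic Ccl5-high cells.

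Sdf4, Tnfrsf4 and Tnfrsf18 are neighbours on the same strand. In GRCm38 Sdf4 lies at chr4:155992872-156013610, Tnfrsf4 at chr4:156013843-156016612, 232 bases further on, and Tnfrsf18 at chr4:156026164-156028895, all on the plus strand. Tnfrsf18, which encodes the costimulatory receptor GITR, was 997 CPM in the Cd7-negative cells, 785 in Cd7-positive and 534 in Cd8-positive cells. Its neighbours had the same order in these intestinal groups but parted in spleen. In splenic Ccl5-high cells Tnfrsf4 was above its level in the Cd7-negative cells and Sdf4 below. Whether reads run from one of these genes into the next was not tested. Lag3 (chr6:124904361-124911705, minus strand) lies 16139 bases from Cd4 (chr6:124864692-124888221, minus strand), its nearest relative in structure. Plac8 lies at chr5:100553725-100572245 (minus strand) and Gzmb at chr14:56258838-56262260 (minus strand).

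Of the 5 markers, Plac8 and Gzmb have a stretch of RefSeq promoter sequence (GRCm38.p6) that lies before every annotated start of the gene and outside other genes. They are shown because Plac8 divides the cells and Gzmb is among their most abundant RNAs. Capitals mark matches, on either strand, to TGTGGT (bound by RUNX factors) and TGANTCA (bound by AP-1).

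Plac8, 202 bases, chr5:100572254-100572455, minus strand: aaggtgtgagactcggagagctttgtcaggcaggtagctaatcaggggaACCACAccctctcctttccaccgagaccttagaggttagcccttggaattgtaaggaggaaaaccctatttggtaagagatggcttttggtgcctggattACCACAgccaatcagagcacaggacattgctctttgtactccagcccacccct
Gzmb, 250 bases, chr14:56262335-56262584, minus strand: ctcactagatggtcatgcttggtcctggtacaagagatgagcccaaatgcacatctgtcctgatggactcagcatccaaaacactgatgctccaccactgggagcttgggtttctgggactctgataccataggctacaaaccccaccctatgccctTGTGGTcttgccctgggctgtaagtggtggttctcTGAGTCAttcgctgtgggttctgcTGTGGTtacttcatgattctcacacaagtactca

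Plac8 had 2 matches to TGTGGT and 0 to TGANTCA, and Gzmb had 2 and 1. In windows of these lengths, 11.7% and 14.0% of all 32851 listed promoters held TGTGGT, and 5.63% and 6.75% held TGANTCA. Of the other motifs searched, GGAAAA (NFAT) had 1 match in Plac8 and 0 in Gzmb, and the NF-kB motif, TTCNNNGAA (STAT) and CACGTG (E-box) had 0 in both. In windows of the length used for Gzmb these were held by 20.4%, 17.6%, 7.02% and 6.02% of promoters. Such matches describe the letters and not the binding of a factor.

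The first comparison asked how Ccl5-high cells without Cd7 differed from those with it. Without Cd7, RNAs of the receptors LAG-3 and OX40 and of the growth factor Csf1 were higher, and RNAs of the intraepithelial genes Itgae, Cd160 and Klrd1 and of granzyme K (Gzmk) were lower. Of 3742 genes with at least 100 UMIs over both groups, 98 (2.62%) were at least 1.5-fold higher in the Cd7-negative cells and 60 (1.6%) at least 1.5-fold lower. The median log2 ratio of all these genes was 0.02, with quartiles of -0.13 and 0.20. Cd7 is detected sparsely, as 166 of the 374 Cd7-positive cells (44.4%) had a single UMI, so that Cd7 RNA could have gone undetected in other cells at this depth.

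Csf1 (chr3:107741048-107760469), a growth factor of macrophages, ranked first among genes higher in the Cd7-negative cells, with 10 CPM added to both levels for the ranking. It stood at 102 CPM against 38.2, a log2 ratio of 1.42 (0.98 to 1.89), and 11.3% of the cells had a UMI after thinning, against 5.36%. Tpi1, an enzyme of glycolysis, followed at 93.9 against 37.5 CPM, then Ecm1, a secreted matrix protein, at 317 against 164, Perp, a membrane protein of the p53 pathway, at 99.0 against 49.5, Eprs, a tRNA synthetase, at 52.6 against 24.8, and Relb, an NF-kB subunit, at 59.4 against 29.0 CPM. Lag3 was 1.80-fold higher (log2 ratio 0.85, 0.78 to 0.91) and Tnfrsf4 1.70-fold higher (0.77, 0.67 to 0.87). For these 2 markers the depth was ample, at 6366 and 2525 UMIs in the Cd7-negative cells.

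Among the genes lower in the Cd7-negative cells, Actn2, an actin crosslinker, stood at 71.9 against 201 CPM (log2 ratio -1.48, -1.80 to -1.18). Itgae, the CD103 chain that binds E-cadherin on epithelium, stood at 83.7 against 220 CPM (log2 ratio -1.39, -1.69 to -1.11). AA467197 was 32.3 against 74.3 CPM, Amica1 (the adhesion molecule JAML) 159 against 311, Dapk2 55.5 against 114, Cd160 88.8 against 161, Tesc 54.3 against 100 and Ccdc30 22.1 against 43.9 CPM. At equal depth an Itgae UMI was found in 13.3% (10.3 to 16.9) of the Cd7-negative cells, 35.7% (30.6 to 41.1) of the Cd7-positive cells and 53.0% (43.5 to 62.3) of the Cd8-positive cells. Of the splenic Ccl5-high cells 0 of 160 had one after thinning, with an upper bound of 2.28%.

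Of 4 tested intraepithelial genes, Itgae, Cd160 and Klrd1 were past 1.5-fold and lower and none was higher, and of 14 tested genes of residency and gut homing, 3 were lower (Itgae, Cd160 and Amica1) and 0 higher. Ccr9, the gut-homing chemokine receptor, was 260 CPM in the Cd7-negative and 240 in the Cd7-positive cells, and Cd69 was 265 against 302. Of 10 genes of the Th1 program, Il12rb2 (281 against 164 CPM) and Il18r1 (105 against 65.1) were higher and Il12rb1 (33.4 against 50.9) lower. Of 9 coinhibitory receptors, Lag3 was higher and Cd160 lower, and of 7 costimulators of the TNF receptor family Tnfrsf4 was higher. Of 8 granzymes and granule genes, Gzmk was lower (230 against 390 CPM) and none was higher. Of 10 glycolysis genes, Tpi1 and Hk2 were higher, and of 7 survival genes Bcl2l1 and Pim1. Among cytokine receptors Il7r was higher (1 of 8), with 48.7 against 31.1 CPM, among chemokine receptors Ccr2 (1 of 5), with 66.2 against 36.1, and among dampeners of signalling Dusp10 (1 of 9). The Treg gene Ikzf2 (41.9 against 70.7 CPM) and S100a6 (139 against 212 CPM, 1 of 9 S100 and galectin genes) were lower. Il7r had a log2 ratio of 0.64, but 0.14 with every cell thinned, and Il18r1, Il12rb1, Dusp10, Bcl2l1, Hk2, Pim1, S100a6 and Tesc were likewise below 1.5-fold in at least 1 setting. None of the 13 tested regulators of Il10, 7 T cell receptor response genes, 8 dissociation genes, 11 interferon-stimulated genes, 10 MHC class I genes, 5 granzyme inhibitors, 4 cytokines, 2 chemokines and 9 genes of the T cell receptor complex was past 1.5-fold either way. A further list holds the genes enriched in both the intestinal and the splenic C1 cluster of the study. Of its 34 tested genes 3 were higher (Lag3, Il12rb2 and Mmd) and 0 lower. It was chosen on data of the same study and is not independent evidence of a direction.

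When the Cd7-positive cells were divided by their Cd7 UMIs, the levels of several genes were ordered with Cd7. Cells with 1, with 2 to 3 and with 4 or more Cd7 UMIs numbered 166, 115 and 93, with median depths of 3549.5, 3656 and 4130 UMIs, so that depth moved with the class. Lag3 stood at 3602, 2379, 2026 and 1410 CPM in cells with 0, 1, 2 to 3 and 4 or more Cd7 UMIs, and Tnfrsf4 at 1429, 1100, 828 and 463. In Cd8-positive cells Lag3 stood at 1453 CPM, close to the last class, and Tnfrsf4 at 157, below it. Sdf4, which did not reach 1.5-fold between the groups as a whole, stood at 1699, 1477, 1188 and 800 CPM. Maf, a transcription factor that activates Il10, stood at 700, 567, 491 and 350 CPM, and at 56.2 in Cd8-positive cells. Il10 was 723 and 721 CPM at 0 and 1 Cd7 UMI, where the levels were within the counting error of each other, and 512 and 380 in the upper classes. Furin, a protease that activates secreted proteins, stood at 943, 794, 661 and 370 CPM. Csf1 stood at 102, 68.1, 19.4 and 12.5 CPM, the last from 5 UMIs.

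The opposite order was found for Gzma, at 20802, 27244, 31570 and 35850 CPM, and for Gzmb, at 12230, 13897, 15142 and 17505 CPM. Itgae stood at 83.7, 191, 204 and 280 CPM and Amica1 at 159, 234, 313 and 423. Klrd1, which encodes CD94, stood at 242, 356, 350 and 443 CPM, with 1048 in the Cd8-positive cells. Plac8 showed no order, at 1705, 1798, 1630 and 1923 CPM. Cd4 was 502, 440, 476 and 413 CPM, with overlapping intervals from the first class to the last (469 to 536 and 352 to 480), while Cd8-positive cells had 124. For Lag3, Tnfrsf4, Maf, Gzma and Itgae, cells with 0 Cd7 UMIs lay furthest from the Cd8-positive cells, which was not so for Plac8. Lag3, Tnfrsf4 and Itgae had been named for their difference by Cd7, so their place at 0 Cd7 UMIs followed from that choice. The genes are examples, and the share of all genes with such an order is not given here. With at least 2 Cd7 UMIs required of the Cd7-positive cells, a setting added after seeing the data, 171 of 3218 genes (5.31%) were higher in the Cd7-negative cells and 76 lower.

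**Figure D2:**
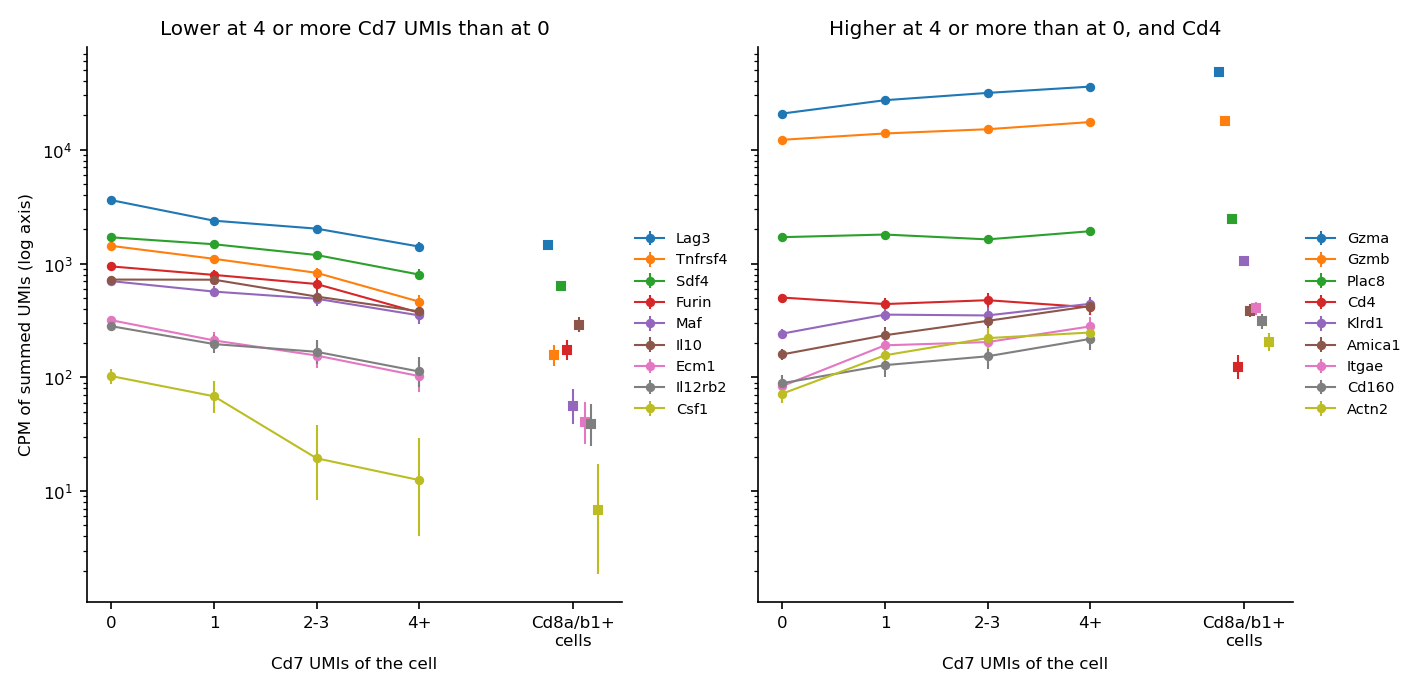
Levels (CPM of summed UMIs, log axis) of 18 genes in intestinal Ccl5-high cells with 0, 1, 2 to 3 and 4 or more Cd7 UMIs (circles joined by lines) and in Cd8-positive cells (squares), with 95% Poisson intervals. Lag3, Tnfrsf4 and Csf1 are highest at 0 Cd7 UMIs, Gzma, Itgae and Amica1 are lowest there, and Plac8 shows no order. Of these, Lag3, Tnfrsf4, Csf1, Itgae and Amica1 were named for their difference by Cd7.

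The cells without Cd7 varied among themselves. After thinning to 2000 UMIs a cell, the variance over the mean (Fano factor, about 1 for counting noise alone) had a median of 1.04 over 2609 genes with a mean of at least 0.1 UMIs, and 49 genes were above 2. Leaving out Ccl5, Gzma varied most, with a factor of 33.3: its UMIs per cell had a lowest value of 0, quartiles of 8, 34 and 64 and a highest value of 208. Actb followed (20.8; quartiles 8, 13 and 31; highest 128), then the chemokine Ccl4 (15.7; quartiles 0, 1 and 3; highest 55), Malat1 (14.4), Gzmb (12.4; quartiles 12, 22 and 36), Areg (7.62), Ccl3 (7.33), Lag3 (6.01; quartiles 2, 5 and 10; highest 44), Tmsb4x (4.98) and Ifi27l2a (4.74). Plac8 had rank 13, with a factor of 3.82. Ccl5, the gene used for selection, had a factor of 34.2.

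Several of these genes reached high values in some cells, and Areg was seen in few cells. Areg, a growth factor of the epidermal growth factor family that acts on epithelium, had a UMI in 48 of 435 thinned cells (8.25% to 14.4%) and up to 20 UMIs in 1 cell. Ccl3 had an upper quartile of 1 UMI and a highest value of 32. Actb was spread in other intestinal groups too, with an upper quartile of 35 UMIs in Cd7-positive and 29.25 in Ccl5-low cells, against 14.25 in splenic Ccl5-high cells, while its lower quartiles were 9, 7.75 and 6. Across 435 members, the strongest correlations of log2 UMIs among the 40 most variable genes and Ccl5 were weak, with Pearson r of 0.43 for Ccl4 with Ccl3, 0.41 for Lag3 with Nkg7, 0.35 for Tnfrsf4 with Srgn, the core protein of granule proteoglycans, and 0.34 for Gzma with Gzmb, leaving out pairs of mitochondrial genes (up to 0.40). They are a description over cells of 1 library at equal depth.

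**Figure D3:**
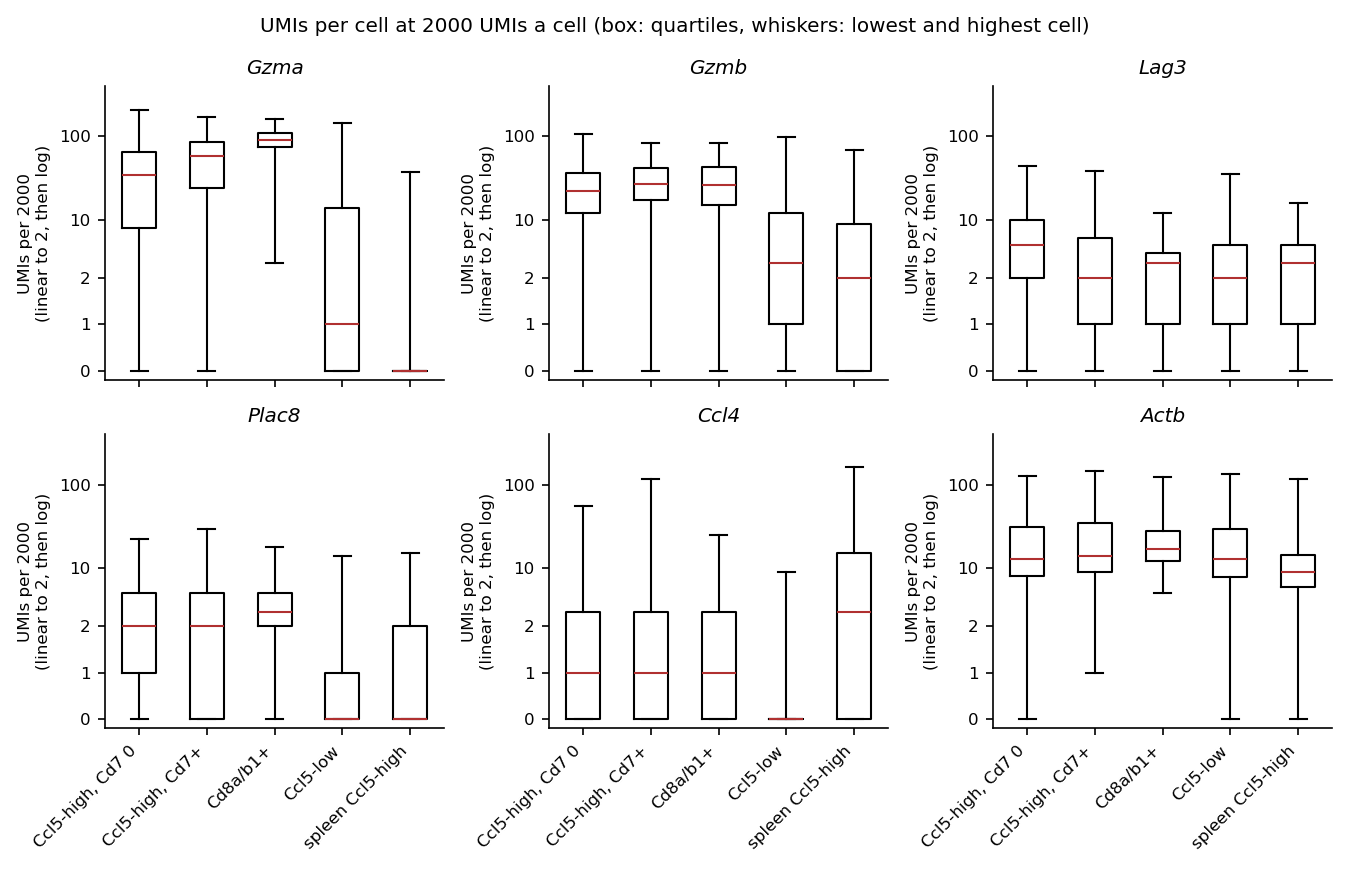
UMIs per cell of 6 genes after thinning to 2000 UMIs, in 4 intestinal groups and splenic Ccl5-high cells; boxes give the quartiles, red lines the median and whiskers the lowest and highest cell, on an axis that is linear to 2 and logarithmic above. The median of Gzma is 34 in the Cd7-negative cells, 89 in Cd8-positive cells and 0 in splenic cells, and Lag3 has its highest median, 5, in the Cd7-negative cells.

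The second comparison divided the Cd7-negative cells by Plac8, with 291 cells at 3 or more UMIs and 130 at 0. Between them lay 63 cells with 1 UMI and 33 with 2, and 42 cells stood just inside at 3. Plac8-high cells had more RNA of the chemokines Ccl3 and Ccl4, the costimulator Tnfrsf9, the killer receptors Klrd1 and Klrc1, Lag3 and Ifng, and less of Nr3c1, Cd160, Maf and Itgae. Of 2014 genes tested, 109 (5.41%) were at least 1.5-fold higher and 70 (3.48%) at least 1.5-fold lower. The cells with 0 Plac8 UMIs were shallower, with a median of 2436.5 UMIs against 3851, and had a higher mitochondrial share, 2.33% against 1.66%. When the classes were set after thinning (263 cells with 2 or more against 104 with 0, at medians of 3846 and 3332.5 UMIs), 48 of 1903 genes (2.52%) were higher and 30 (1.58%) lower.

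Ccl3, a chemokine that draws T cells and monocytes, was 375 CPM in Plac8-high cells against 104 in cells without Plac8 (log2 ratio 1.86, 1.36 to 2.40), and Ccl4 was 1553 against 710 (1.13, 0.93 to 1.33). Cells with 1 or 2 Plac8 UMIs had 2198 CPM of Ccl4, above both. Tnfrsf9, which encodes 4-1BB, was 170 against 50.3 CPM (log2 ratio 1.76), but 0.69 when Ccl5 was required at 0.5% only. Klrd1 was 313 against 106 CPM (1.56, 1.06 to 2.09), and 2.20 among cells of at least 2000 UMIs. The antiviral gene Ifitm3 (512 against 242), S100a6 (157 against 71.0) and Eci2 (87.7 against 38.4) were also among the genes furthest above. With the classes set after thinning the log2 ratio of Ifitm3 was 0.47, below 1.5-fold. S100a6 rested on the Ccl5 limit, with a log2 ratio of -0.14 at 0.5% of UMIs.

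Nr3c1, the glucocorticoid receptor, was 44.7 CPM in Plac8-high cells against 154 in cells without Plac8 (log2 ratio -1.78, -2.37 to -1.20), and Cd160 was 61.4 against 195 (-1.67, -2.18 to -1.16). Both kept this direction in the 12 settings tried, between -1.93 and -1.38 for Nr3c1 and between -1.86 and -1.49 for Cd160. Arhgap31 was 103 against 228 CPM, Trps1 65.8 against 148, Pcif1 63.1 against 130, Itpkb 110 against 210 and Neb 99.95 against 192 CPM. Itpkb was below 1.5-fold (log2 ratio -0.36) with classes set after thinning, and Neb (-0.42) with every cell thinned.

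Of the gene lists, 2 of 2 tested chemokines and 2 of 2 killer receptors (Klrd1 and Klrc1, 97.3 against 44.4 CPM) were higher in Plac8-high cells. Of 11 regulators of Il10, 2 were lower and none higher: Maf (584 against 964 CPM) and Prdm1, which encodes BLIMP-1 (80.7 against 151). Both were below 1.5-fold in other settings, Maf at a log2 ratio of -0.44 with classes set after thinning and Prdm1 at -0.21 with every cell thinned. Of 4 cytokines Ifng was higher, at 537 against 281 CPM, and Il10 stood at 753 against 559, below 1.5-fold. Of 9 coinhibitory receptors Lag3 was higher (3927 against 2588 CPM, log2 ratio 0.60) and Cd160 lower, though Lag3 was below 1.5-fold (0.37) with classes set after thinning. Tnfrsf9 was the 1 of 7 TNF receptor costimulators and S100a6 the 1 of 9 S100 and galectin genes that were higher. Of 10 residency genes Itgae (72.8 against 130 CPM) and Cd160 were lower. Il2rb (180 against 112) was the 1 of 5 cytokine receptors, Cd2 the 1 of 9 genes of the T cell receptor complex and Serpinb1a the 1 of 5 granzyme inhibitors that were higher. With classes set after thinning Il2rb (log2 ratio 0.20) and Cd2 (0.39) were below 1.5-fold, as was Serpinb1a (0.14) with Ccl5 required at 0.5% only. Of the interferon-stimulated genes Igtp was higher, but had a log2 ratio of -0.027 when every cell was thinned. None of 7 granule genes, 6 T cell receptor response genes, 8 dissociation genes, 7 dampeners, 6 glycolysis genes or 10 MHC class I genes was past 1.5-fold. Gzma was 20485 CPM in Plac8-high cells, 18267 in the middle class and 24034 without Plac8, and Gzmb was 12984, 12305 and 9623.

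**Figure D4:**
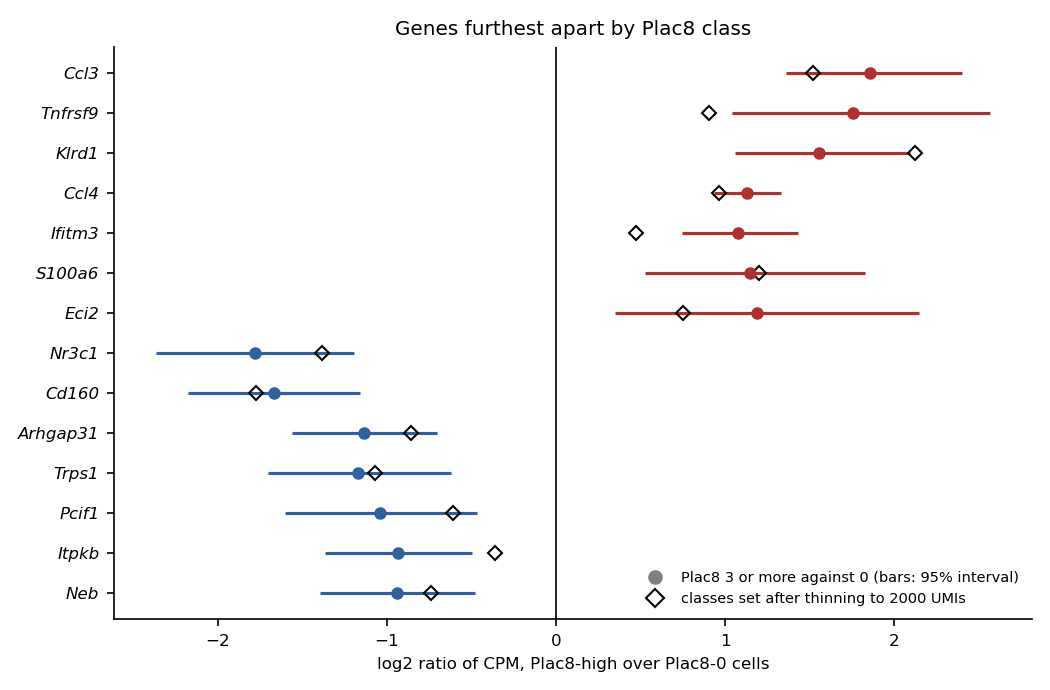
Log2 ratios of CPM between Cd7-negative cells with at least 3 Plac8 UMIs and with 0, for genes among the highest and lowest (filled points, with exact 95% intervals), and with classes set after thinning every cell to 2000 UMIs (open diamonds). All genes shown keep their side of 0, and the diamonds of Tnfrsf9, Klrd1, Ifitm3 and Itpkb lie outside the intervals.

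Surface molecules used to mark TR1 and exhausted T cells were detected unevenly. At equal depth, Lag3 was seen in 92.9% (90.0 to 95.1) of the Cd7-negative and 85.0% (78.5 to 90.1) of the splenic Ccl5-high cells. Havcr2, which encodes TIM-3, was seen in 18.2% and 13.1%, and as deposited in 27.1% and 37.4%, the splenic cells being deeper. Pdcd1 (PD-1) was seen in 12.9% (9.87 to 16.4) and 37.5% (29.98 to 45.49), Tigit in 6.44% and 9.38%, and Itga2 in 1.15% and 1.25%. Of these only Pdcd1 was seen in a larger share of the splenic cells with intervals that did not overlap. Itga2, which encodes the TR1 marker CD49b, had 9 UMIs in all 517 cells.

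The third comparison set the cells beside the splenic Ccl5-high cells, likewise sorted as IL-10eGFP+ CD4+ T cells. It asks what a Ccl5-high IL-10 reporter cell carries in each tissue, though the splenic cells were chosen by a different rule. The intestinal cells had more granzyme, T cell receptor response and immediate early RNA, and the splenic cells more S100, galectin, CCL3 and CCL4 RNA. Most tested genes of residency and gut homing, Ccr9 among them, were higher in the intestinal cells, while Itga4 and Cxcr6 were lower. Of 3341 genes tested, 590 (17.7%) were at least 1.5-fold higher in the intestinal cells and 604 (18.1%) at least 1.5-fold lower. Splenic cells needed Ccl5 at only 0.5% of UMIs and were not limited by Cd7, Cd8a, Cd8b1, mitochondrial share or cycle genes. The 5 cycle genes summed to 790 CPM in them against 36.2 in the intestinal cells. Of the 163 splenic cells, all with 0 Foxp3 UMIs, 79 also met the intestinal rule. Against these 79, 512 of 2764 genes were higher in the intestinal cells and 341 lower. A scaling without mitochondrial, ribosomal and the 10 leading genes moved all log2 ratios by 0.11, toward the intestinal cells, and gave 703 higher and 454 lower genes.

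Gzma ranked first of the genes higher in the intestinal cells. It stood at 20802 CPM (20590 to 21016) against 192 (164 to 223), 109-fold (log2 ratio 6.76, 6.55 to 6.99), and 8.75% of thinned splenic Ccl5-high cells had a UMI. Areg was 280 against 3.38 CPM, the latter from 3 UMIs (log2 ratio 6.37, 4.81 to 8.65). Ramp3, a subunit of receptors of the calcitonin family, was 386 against 15.8 CPM, Ccr9 260 against 11.3, Ecm1 317 against 16.9, Pmepa1, which TGF-beta induces, 169 against 6.76, the transporter Abcb1a 251 against 19.2 and Gadd45b 942 against 96.9 CPM. Itgae was 83.7 CPM against 1.13 from 1 UMI (log2 ratio 6.22, 3.72 to 11.53).

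S100a4 ranked first of those lower, with 9 UMIs in all 517 cells (5.09 CPM) against 658 CPM in the splenic cells, 129-fold. S100a6 was 139 against 2029 CPM, the peptidoglycan-binding Pglyrp1 14.1 against 359 and the serpin Serpina3f 5.66 against 175. Ly6c2 had 0 UMIs against 114 CPM, at least 67.0-fold lower with the floor set at 3 UMIs over the group. Hist1h2ap (18.7 against 649 CPM), Stmn1 (22.6 against 541) and Cks1b (6.22 against 172) are genes of dividing cells. With splenic cells limited to fewer than 4 cycle gene UMIs, a setting added after seeing the data, their log2 ratios went from -5.12 to -0.17, from -4.58 to -2.02 and from -4.79 to -1.51. Among the S100 and galectin genes 9 of 10 tested were lower and none higher, with a median log2 ratio of -1.61 against -0.09 over all genes. They included Lgals1 (1060 against 3249 CPM), Crip1 (457 against 1797) and S100a10 (319 against 973), while Vim, lower at first, had a log2 ratio of 0.15 when the splenic cells were chosen by the intestinal rule.

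T cell receptor response genes were higher in 5 of 7 cases (Nr4a1, Nr4a2, Egr1, Nfkbia and Tnfaip3) and lower in none, with a median log2 ratio of 1.495. Tnfaip3, the inhibitor A20 of NF-kB, was 428 against 84.5 CPM, and Nr4a1, an orphan nuclear receptor induced by T cell receptor signals, 127 against 39.4. Of 10 dampeners 6 were higher, such as Rgs1 (2072 against 711 CPM), Dusp1 (698 against 185) and Rgs2 (179 against 29.3), and Rgs16 was lower. Genes known to respond to tissue dissociation moved alongside: 5 of 8 were higher (Fos, Fosb, Jun, Junb and Ier2) and none lower, with a median of 1.18. Fosb was 157 against 16.9 CPM and Junb 2546 against 811. The part of the digestion in these levels was not tested.

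Of 13 residency and gut homing genes 8 were higher (Itgae, Cd69, Ccr9, Rgs1, Gpr55, Amica1, Hopx and Runx3) and 2 lower (Itga4 and Cxcr6). Cd69, which holds T cells in tissue, was 265 against 32.7 CPM, and Cxcr6 308 against 798. Of 3 tested genes of naive and recirculating cells, Klf2, which drives recirculation, was lower (19.2 against 186 CPM), Satb1, a chromatin organiser, was higher (538 against 276) and Il7r was 48.7 against 56.3 CPM. Of 4 tested intraepithelial genes Itgae, Gzma and Klrd1 (242 against 78.9 CPM) were higher, with a median log2 ratio of 3.92, and Cd160 was 88.8 against 63.1 CPM. Of 9 Th1 genes 6 were higher, among them Ifng (468 against 232 CPM), Il12rb2 (281 against 100), Il18rap (99.0 against 30.4) and Ifngr1 (1305 against 545), and Cxcr3 was lower (48.1 against 125). Tbx21, the Th1 factor T-bet, was low in both, at 34.5 and 49.6 CPM.

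Of 8 granule genes Gzma, Gzmb and Fasl were higher, and Nkg7 was 4139 against 4640 CPM. Of 6 granzyme inhibitors Serpinb6a, Serpinb6b (1238 against 546 CPM) and Serpinb9 (378 against 206) were higher and Serpina3g and Serpina3f lower. Both tested chemokines were lower, Ccl3 at 304 against 1569 CPM and Ccl4 at 1497 against 7157. Of 9 coinhibitory receptors Lag3, Lilr4b (500 against 132 CPM), Lilrb4a and Nt5e were higher, and Pdcd1 (77.0 against 318) and Vsir lower, while Ctla4 was 1629 against 1433. Of 7 TNF receptor costimulators Tnfrsf9 and Cd27 were lower and none was higher, though Tnfrsf9 had a log2 ratio of -0.14 with splenic cells chosen by the intestinal rule. Of 13 regulators of Il10, Irf1, Bhlhe40, Stat3 and Id2 were higher and Batf (147 against 419 CPM) and Ikzf3 lower. Maf was 700 against 704 CPM and Il10 723 against 498, so that these 2 stayed under 1.5-fold. Of 5 tested chemokine receptors Ccr9 was higher and Ccr2, Cxcr3 and Cxcr6 lower. Of 8 cytokine receptors Il21r (558 against 277 CPM), Il27ra, Il4ra and Tgfbr2 were higher, and of 7 survival genes Bcl2l11, Mcl1 and Pim1. Of 10 glycolysis genes 5 were lower, such as Ldha (886 against 1858 CPM) and Pgam1 (59.98 against 175), and Hk2 was higher. Interferon-stimulated genes went both ways, with 4 of 12 higher, such as Isg15 (376 against 149), and 4 lower, such as Ifi27l2a (2528 against 5351). Of 10 MHC class I genes H2-T23 was higher and Psmb8 and Psmb9 lower. Of the 34 tested genes enriched in both of the study's C1 clusters, which were chosen on these tissues, 18 were higher and 4 (Ccl4, Sub1, Ms4a4b and Ly6a) lower. Sdf4 (log2 ratio 0.35), Hk2 (0.41), Id2 (0.51), Hopx (0.56) and Psmb9 (-0.44) were below 1.5-fold with splenic cells chosen by the intestinal rule, and Fasl (0.38), Il27ra (0.38), Isg20 (0.38), Pgk1 (-0.31) and Itga4 (-0.58) with every cell thinned. Irf7 (0.38) was so with splenic cells limited to fewer than 4 cycle gene UMIs, and Ikzf3 (-0.57) and Cd27 (-0.58) with the scaling without leading genes.

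**Figure D5:**
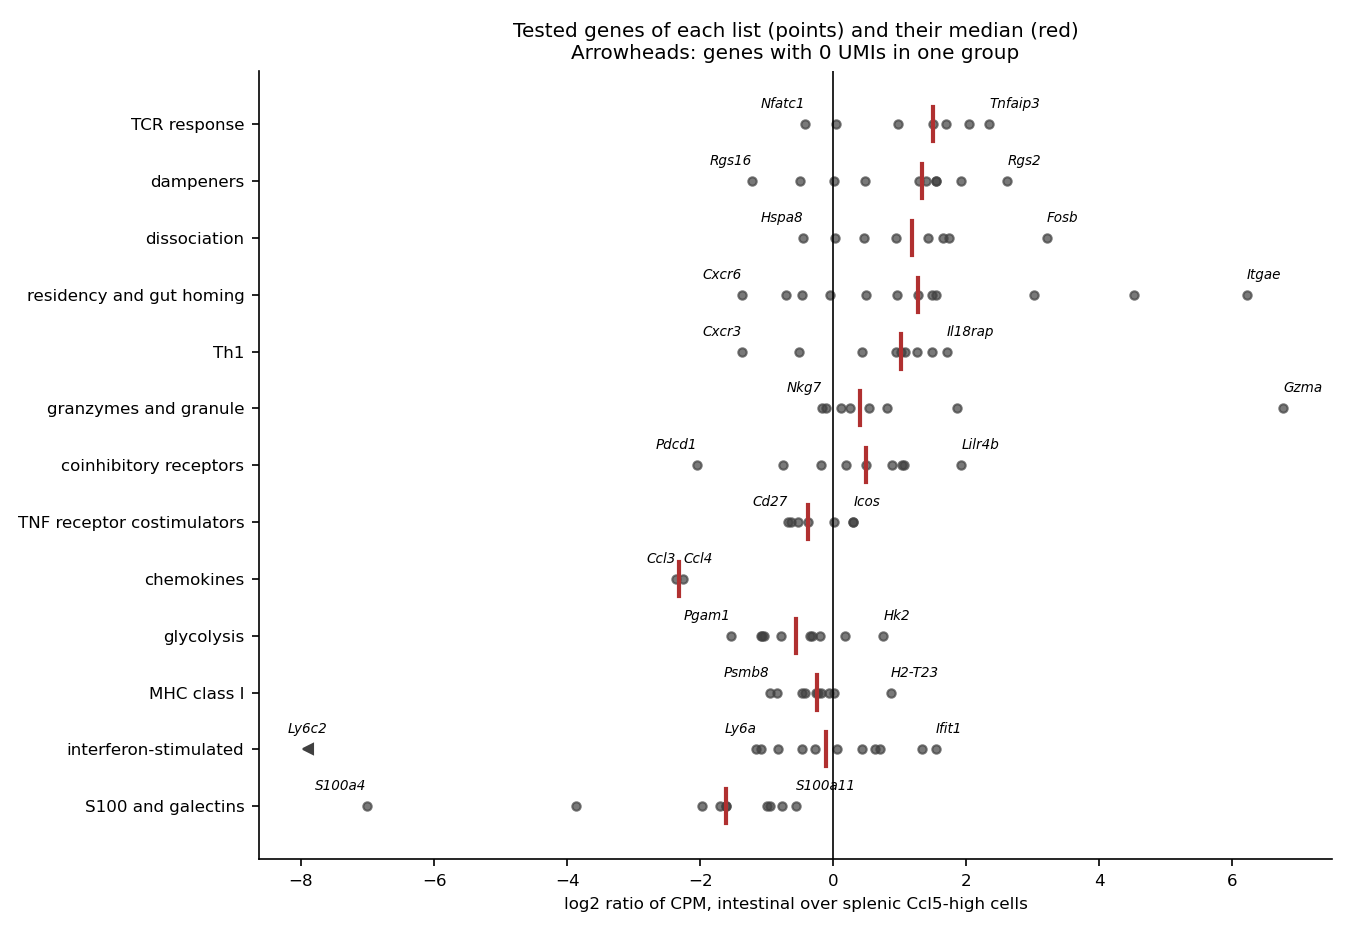
Log2 ratios of CPM between intestinal Cd7-negative and splenic Ccl5-high cells for the tested genes of 13 lists (points, with the lowest and highest gene named; red lines, medians; arrowheads, 0 UMIs in one group). The medians of T cell receptor response genes (1.495) and of S100 and galectin genes (-1.61) lie furthest to either side among the lists drawn, apart from the 2 chemokines. The intraepithelial genes (3.92) are not drawn.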

How the data were processed

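The deposited values were raw UMI counts of each gene in each barcode, for which the authors trimmed the reads with Trimmomatic, aligned them to Mm10 and counted them with CellRanger. Versions are not given in the sources used here. Both libraries, 28009 listed genes and all barcodes were used as deposited. The members and the gene lists were chosen with earlier results of these data known. Computations ran in Python 3.11.15 (scipy 1.17.1, numpy 2.4.6, matplotlib 3.10.9).

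Counts were summed over the cells of a group and scaled to CPM, with exact Poisson 95% intervals. Ratios have exact conditional binomial intervals. A gene was tested with at least 100 UMIs over both groups, leaving out the genes that chose the groups, and called at 1.5-fold. The steps were tested on simulated data. Genes were named as the rule genes, the 5 markers, examples of each list, the 8 highest and 8 lowest by ratio with a pseudocount of 10 CPM, and the 10 most abundant and most variable. Some of these genes are not reported here. Further genes, such as Actb by group, Cd4 by Cd7 class, Furin and Tbx21, were named after their values were seen. Single cells were compared after thinning to 2000 UMIs (random seed 1). A total of 3 UMIs corresponded to 1.70 CPM in the members and 3.38 CPM in splenic Ccl5-high cells. The small intestine had 5693395 UMIs and the spleen 11103530. Doublets were not called. Near-identical genes such as Ccl3 and its copies, Klrc1 and its relatives, and Lilr4b and Lilrb4a may share reads. Gene positions are from GENCODE M21 (GRCm38), and 65 symbols appeared more than once in the gene list.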

Additional observations from a re-analysis of the deposited data

How the results depend on the processing

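No paired analysis was possible because each tissue has 1 library, and no replicate could be left out. The number of members stayed between 435 and 540 in 7 settings. A minimum of 20 UMIs over both groups, which adds genes of few counts, gave 600 higher and 448 lower genes by Cd7, 805 and 658 by Plac8, and 1628 and 1615 against spleen. Thinning every cell to 2000 UMIs, which leaves fewer genes to test, gave 37 lower genes by Cd7, 43 higher and 17 lower by Plac8, and 291 higher and 266 lower against spleen. By Plac8, giving each cell the same weight gave 177 higher and 108 lower genes, and classes set after thinning 48 and 30. Splenic cells chosen by the intestinal rule gave 341 lower genes, and Cd7-positive cells with at least 2 Cd7 UMIs, a setting added after seeing the data, gave 171 higher genes. The cause of these differences was not tested. The scaling without leading genes turned the balance of calls by Cd7 from 98 higher and 60 lower to 70 and 75, and by Plac8 from 109 and 70 to 88 and 95, while it moved all log2 ratios by -0.04 and -0.05. The other counts of calls were within 1.5 times the values given.

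Among the named genes past the fold, 4 log2 ratios changed sign in 1 setting each: S100a6 by Plac8 (-0.14, Ccl5 at least 0.5%), Igtp by Plac8 (-0.027, every cell thinned), and against spleen Vim (0.15) and Hist1h2ap (0.060), both with splenic cells chosen by the intestinal rule. Of all log2 ratios of such genes under alternatives, these 4 included, 320 of 330 by Cd7, 293 of 312 by Plac8 and 1273 of 1414 against spleen lay within the interval of the main value. The 1 library per tissue limits every comparison, and depth limits the calls by Plac8, where the cells without Plac8 are the shallowest.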
